A study of Notophthalmus viridescens with 12 samples.

Results

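In 12 assembled newt dorsal iris transcripts, mean log2 levels of intact iris and 6 h post-lentectomy (hpl) lay within 1.5 of each other. All 12 were lower at 1 and 4 days post-lentectomy (dpl). The 12 were selected on their values in all 12 libraries, out of 856451 transcripts. Abundance is the unlogged value, and log2 values are log2(abundance + 1). A transcript was kept if its mean abundance was 50 or more in both intact iris and 6 hpl, if the mean log2 values of intact and 6 hpl lay within 1.5 of each other and those of 1 and 4 dpl likewise, and if its gap was 1.5 or more. The gap is the lowest log2 value of the 6 intact and 6 hpl libraries minus the highest of the 6 later libraries. Because these values chose the transcripts, the fall itself is given as a description and not as a test result.

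Dorsal irises came from adult, wild-caught eastern newts (Notophthalmus viridescens) with no transgene. The groups were intact irises from animals without lentectomy, and irises collected at 6 hpl, 1 dpl and 4 dpl after surgical lens removal under tricaine anesthesia, with 3 libraries each. A library was 1 pool of irises from both eyes of 3 or 4 animals, so differences between single animals cannot be seen. The values are a normalised abundance per transcript, without the read depth reached by each library. The paper states only an approximate depth for all samples. The sums of values ranged from 27737613 to 40770545 per library.

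Newts regrow a lost lens from the dorsal iris. After lentectomy its pigment epithelial cells lose pigment, re-enter the cell cycle and change into lens cells, while the iris also holds stroma, vessels, muscle and resident immune cells. The level of a transcript is set by how fast it is made and how fast it is degraded, so that one whose production stops can persist for hours. In a bulk tissue, fewer cells of a type and less RNA per cell cannot be told apart. The table paired 0 transcripts with a gene name or a sequence, so no role is given to any of the 12, no cell type was checked against markers, and different IDs can be fragments or isoforms of 1 gene. They are numbered 1 to 12 from the largest gap to the smallest, and their values are given in the order of replicates 1, 2 and 3.

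The mean requirement left 51463 transcripts. Of these, 1261 had every intact and 6 hpl library above every later library, and in 29 the gap reached 1.5. Over all transcripts tested, with no minimum mean, a separation by any amount of the 6 earlier from the 6 later libraries was found in 0.974%. Of the 29, 8 were set aside because intact iris and 6 hpl differed by more than 1.5, and all 8 were higher in intact iris. A further 9 were set aside because 1 and 4 dpl lay apart, and all 9 were lower at 4 dpl. The gaps of the remaining 12 ranged from 1.60 to 3.53 with a median of 2.54. The last transcript inside the limit had a gap of 1.60 and the first outside it 1.46. For the mean requirement the neighbours were 64.3 inside and 39.8 outside, for the intact and 6 hpl means 1.46 inside and 1.68 outside, and for the 1 and 4 dpl means 1.46 inside and 1.54 outside.

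**Figure D1:**
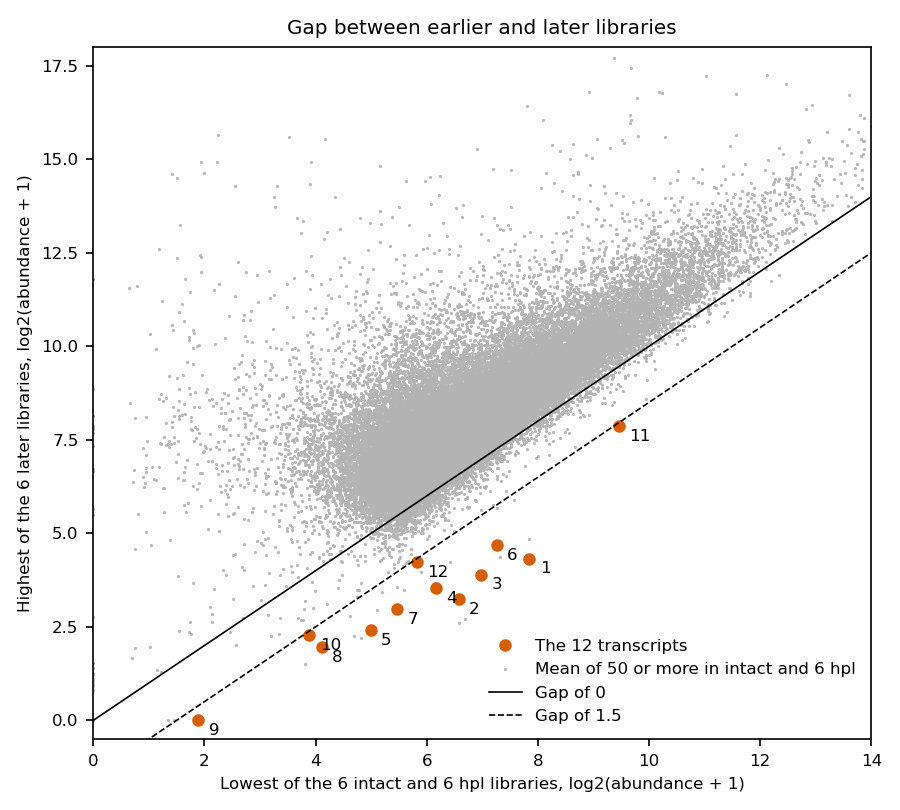
Each point is a transcript with a mean of 50 or more in intact iris and at 6 hpl, with its lowest value in the 6 intact and 6 hpl libraries on the horizontal axis and its highest value in the 6 later libraries on the vertical axis, both as log2(abundance + 1). The 12 numbered transcripts lie below the dashed line of a gap of 1.5, and unnumbered points below it failed a condition on the group means.

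The largest gap, 3.53, belonged to transcript 1 (ID 7_55726412). Its abundance was 230, 568 and 1969 in intact replicates 1, 2 and 3, and 4403, 331 and 583 at 6 hpl. It was 11.5, 19.0 and 8.62 after 1 day and 1.34, 10.8 and 5.32 after 4 days. The lowest earlier library was thus 12.1-fold above the highest later one, although the earlier libraries spread widely among themselves. In the fit over all libraries the log2 difference of 1 dpl from 6 hpl was -6.15 ± 0.79 (SE), and that of 4 dpl from intact iris was -6.83 ± 0.79. Every SE given here comes from this fit. It uses 1 spread per transcript, shared by the 4 groups and drawn toward that of other transcripts. Where intact iris and 6 hpl spread more than the later groups, the SE of their difference can be too small. The same holds for the SE of a fall from either of them to a later group. In transcript 1 the SD of the log2 values was 1.96 at 6 hpl and 0.54 at 1 dpl.

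Transcript 2 (ID 8_62516948) had the next gap, 3.33. It was at 158, 336 and 819.6 in the intact libraries, 618, 137 and 94.3 after 6 h, 5.16, 8.46 and 3.90 after 1 day and 6.19, 1.48 and 1.36 after 4 days. As in transcript 1, intact replicate 3 and 6 hpl replicate 1 were the highest libraries of their groups. Its log2 difference was -0.81 ± 0.64 (SE) at 6 hpl against intact iris and -4.93 ± 0.64 at 1 dpl against 6 hpl.

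The pair of further transcripts named here had the largest positive differences of 6 hpl from intact iris, which did not pass the test across all transcripts for either. Transcript 3 (ID 4_29856970) was at 150.4, 125 and 129 in the intact libraries, 166, 302 and 351 after 6 h, 13.9, 3.91 and 3.53 after 1 day and 1.56, 0.604 and 2.92 after 4 days. Every 6 hpl library was above every intact one, and its 3 intact libraries differed by 1.20-fold at most. The log2 difference was 0.95 ± 0.47 (SE) at 6 hpl against intact iris and -5.24 ± 0.47 at 1 dpl against 6 hpl. Transcript 5 (ID 4_29118506) was at 30.9, 127 and 245 in the intact libraries, 988, 102 and 56 after 6 h, 3.02, 4.30 and 2.57 after 1 day and 2.41, 3.15 and 1.45 after 4 days. Here the intact and 6 hpl values overlapped, and the log2 difference of 0.84 ± 0.78 rested on 6 hpl replicate 1, without which it was -0.39. The SD of the log2 values of transcript 5 was 1.51 in intact iris and 2.17 at 6 hpl. At 1 and 4 dpl it was 0.29 and 0.38, so the shared SE understates the spread in the earlier groups.

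Transcripts 4, 6 and 7 shared the profile of transcripts 1 and 2. Transcript 4 was at 109.8, 172 and 433 in the intact libraries, 461, 76.6 and 71.0 after 6 h, 5.31, 7.67 and 10.6 after 1 day and 3.97, 2.77 and 1.16 after 4 days. Transcript 6 was at 243, 599.7 and 1290.5 in the intact libraries, 1090.4, 153 and 189 after 6 h, 14.3, 24.8 and 16.5 after 1 day and 5.69, 12.6 and 15.7 after 4 days. All 6 later libraries of both were low, and the later groups overlapped in transcript 6 but not in transcript 4. Transcript 7 was at 49.1, 216 and 592 in the intact libraries, 524, 43.4 and 52.0 after 6 h, 4.56, 6.87 and 1.19 after 1 day and 1.03, 2.14 and 2.18 after 4 days. In all 3, intact replicate 3 and 6 hpl replicate 1 again stood above the other libraries of their groups.

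Transcripts 8, 9 and 10 included values listed at 0, which are estimates and are not read as absence. Transcript 8 was at 55.2, 206 and 372 in the intact libraries, 80.2, 146 and 16.3 after 6 h, 2.86, 0.851 and 1.92 after 1 day and 0, 2.83 and 0 after 4 days. It had the largest drop of 6 hpl below intact iris among the 12, at -1.46 on the log2 scale, but the groups overlapped. Transcript 10 was at 13.8, 58.2 and 121 in the intact libraries, 233, 17.4 and 14 after 6 h, 0, 3.85 and 0 after 1 day and 0, 2.07 and 0 after 4 days. The least even of all was transcript 9, at 2.70, 6.70 and 43195.5 in intact iris and 4923, 32.0 and 7.73 at 6 hpl, and listed at 0 in all 6 later libraries. A single library of each group gave nearly all of its mean, so its group means are not a level that the 3 replicates share, and no fold is given.

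Transcripts 11 and 12 were the most even among intact libraries besides transcript 3. Transcript 11 was at 819.7, 901 and 1019.5 in the intact libraries, 1877, 705 and 1002 after 6 h, 148, 95.1 and 154 after 1 day and 106, 196 and 232 after 4 days. It alone of the 12 kept a mean above 100 after 6 hpl, at 132 ± 32.3 (SD, n = 3) at 1 dpl and 178 ± 64.5 at 4 dpl, and it alone had a higher mean log2 value at 4 dpl than at 1 dpl, with overlapping groups. Transcript 12 was at 287, 276 and 239 in the intact libraries, 241, 55.6 and 89.6 after 6 h, 10.9, 17.7 and 11.9 after 1 day and 9.08, 4.43 and 2.45 after 4 days. Its log2 difference was -1.31 both at 6 hpl against intact iris, where the libraries overlapped, and at 4 dpl against 1 dpl, where they did not.

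**Figure D2:**
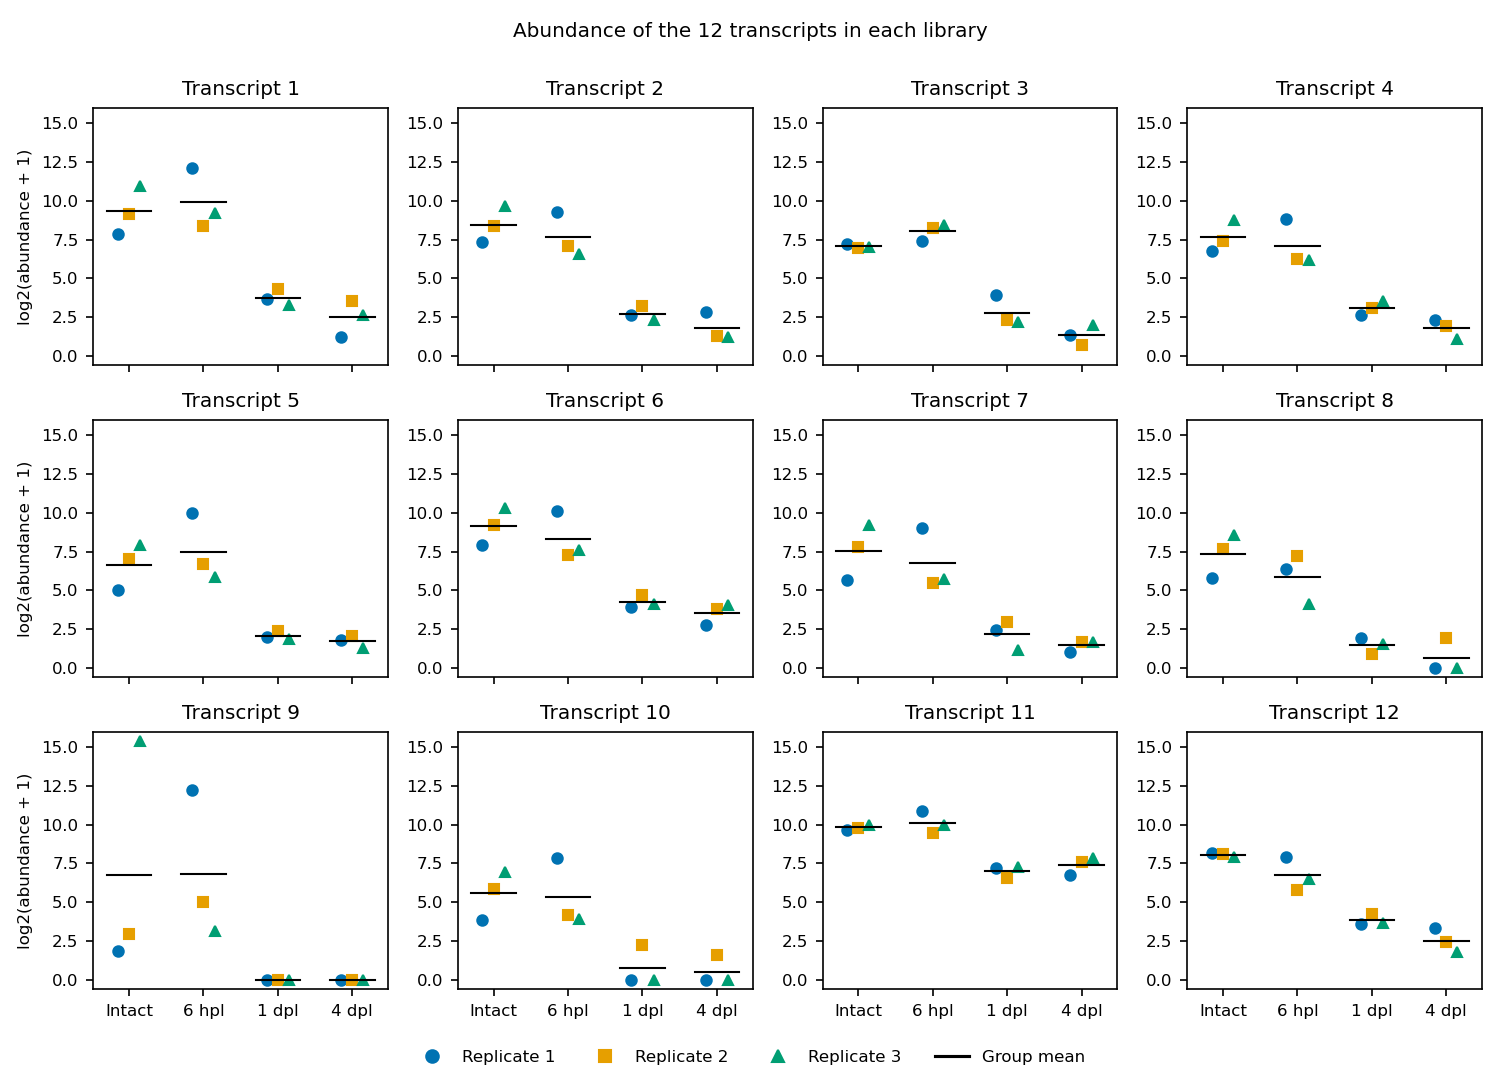
Each panel shows 1 of the 12 transcripts, with the 4 groups on the horizontal axis, log2(abundance + 1) on the vertical axis, a marker for each library and a line at the group mean. All 6 intact and 6 hpl libraries lie above all 6 later libraries in every panel, as the choice of transcripts requires, and intact replicate 3 and 6 hpl replicate 1 are the highest of their groups in 9 panels.

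Over the 12 transcripts, the median abundance by library was 130.1, 211 and 512 in intact replicates 1 to 3, 571, 119 and 80.3 after 6 h, 5.24, 7.27 and 3.72 after 1 day and 1.98, 2.80 and 1.81 after 4 days. By this median, 6 hpl replicates 2 and 3 lay below all 3 intact libraries and 6 hpl replicate 1 above them. Of the 72 later values, 12 were listed at 0 and 43 were below 5. Median log2 differences over the 12 were -4.86 at 1 dpl and -5.81 at 4 dpl when set against intact iris, and -4.56 and -5.31 when set against 6 hpl, while medians over all transcripts tested lay between -0.05 and -0.01. By limma with Benjamini-Hochberg adjustment over all transcripts tested, where a transcript is called at an adjusted p under 0.05, 11 of the 12 were called lower in each of these comparisons, where the calls took in 1.63%, 2.37%, 0.324% and 1.79% of all transcripts tested. These contrasts chose the 12, so nothing is read from that count. Transcript 9 was the exception in each, and at 1 dpl against 6 hpl only 7 were called without 6 hpl replicate 1 and 3 in a fit of these 2 groups alone. At 6 hpl against intact iris 0 of 12 were called, with 2.78% of all transcripts called in either direction, and at 4 dpl against 1 dpl 0 of 12, with 0.719% called. At an unadjusted p under 0.05 these counts were 1 and 3. Similar mean log2 values in intact iris and at 6 hpl, and likewise at 1 and 4 dpl, were a condition of the choice. That condition limits the calls in both comparisons, so the counts are not read as a sign of no change.

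Within the bounds set by the choice, 7 of the 12 were lower and 5 higher at 6 hpl than in intact iris, by -1.46 to 0.95 log2 units. Between 1 and 4 dpl, 10 were lower at 4 dpl, 1 was higher and transcript 9 was at 0 in both, with a median difference of -0.78. Among the 51463 transcripts with the same minimum mean, 44.8% were lower at 6 hpl than in intact iris and 47.0% lower at 4 dpl than at 1 dpl. No single one of the 12 was called in either comparison, so the direction is given only as a count.

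The choice named no replicate, and most of the 12 were alike in which one was highest. However, transcripts 2, 6, 7, 8, 9, 10 and 12 met the choice only with 6 hpl replicate 1 included. It was the highest 6 hpl library in all of these but transcript 8. Shares of the 12 and of the 51463 are thus not a like comparison, and nothing is read from their difference. Intact replicate 3 was the highest intact library in 10 of the 12 and 6 hpl replicate 1 the highest 6 hpl library in 10, against 41% and 21.7% of the 51463 transcripts with the same minimum mean. Both held in 9 of the 12, against 8.77%. In 7 of the 12, transcripts 1, 2, 4, 6, 7, 9 and 10, both libraries were at least 2-fold above the other libraries of their groups, a feature of 190 of the 51463 (0.369%). Transcripts 7, 9 and 10 reached the mean of 50 at 6 hpl only through replicate 1, since the mean of the other 2 libraries was 47.7, 19.8 and 15.7, and all 3 were lost when the choice was made without that library. Transcripts 9 and 10 also reached it in intact iris only through replicate 3, the other 2 libraries having means of 4.70 and 36.0. For these 3 the mean requirement thus took the transcript in through its high library. Chosen without 6 hpl replicate 1, 6 transcripts met the conditions, 5 of them among the 12. Transcripts 2, 6, 8 and 12 were then lost as well, so most of the set depended on that library. The choice also required similar mean log2 values in intact iris and at 6 hpl. What part this had in the pairing of the 2 libraries was not tested. At 1 dpl, replicate 2 was the highest library in 7 of the 12, against 21.0% of the 51463 and 33.1% of all transcripts. The 51463 have the same minimum mean in intact iris and at 6 hpl, but not the low 1 dpl level of the 12.

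The rest of the replicate profile followed the same order. Intact replicates ran 3, 2 and 1 from high to low in 10 of the 12, against 28% of the 51463. This order includes replicate 3 being highest, which was counted above for the same 10. Among the 51463, replicate 3 was highest in 21123 and the full order held in 14389. Deviations from the group means in the 6 intact and 6 hpl libraries correlated between transcripts with a median r of 0.83 over 66 pairs, from -0.92 to 1.00. These are 6 points that share their libraries, and the value is a description. Transcript 3 was the exception, with a median r of -0.84 to the others, and transcripts 8 and 12 followed less closely, at 0.51 and 0.64. The median spread between replicates of the 12 was wider than over the 51463 in every group but 1 dpl. Taken as the median SD of log2 values within a group, it was 1.30 in intact iris and 1.57 at 6 hpl, against 0.39 and 0.27 over the 51463. It was 0.46 at 1 dpl and 0.67 at 4 dpl, against 0.54 and 0.28. Transcripts 3, 11 and 12 were narrower in intact iris, with log2 SDs of 0.14, 0.16 and 0.14. How 3 pools of animals came to differ in this way was not tested. The SDs and correlations include transcripts 7, 9 and 10, which met the mean requirement at 6 hpl only through replicate 1. What part the choice had in the wider spread was not tested. Of the 72 later values 43 were below 5, where adding 1 before the log narrows the spread.

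**Figure D3:**
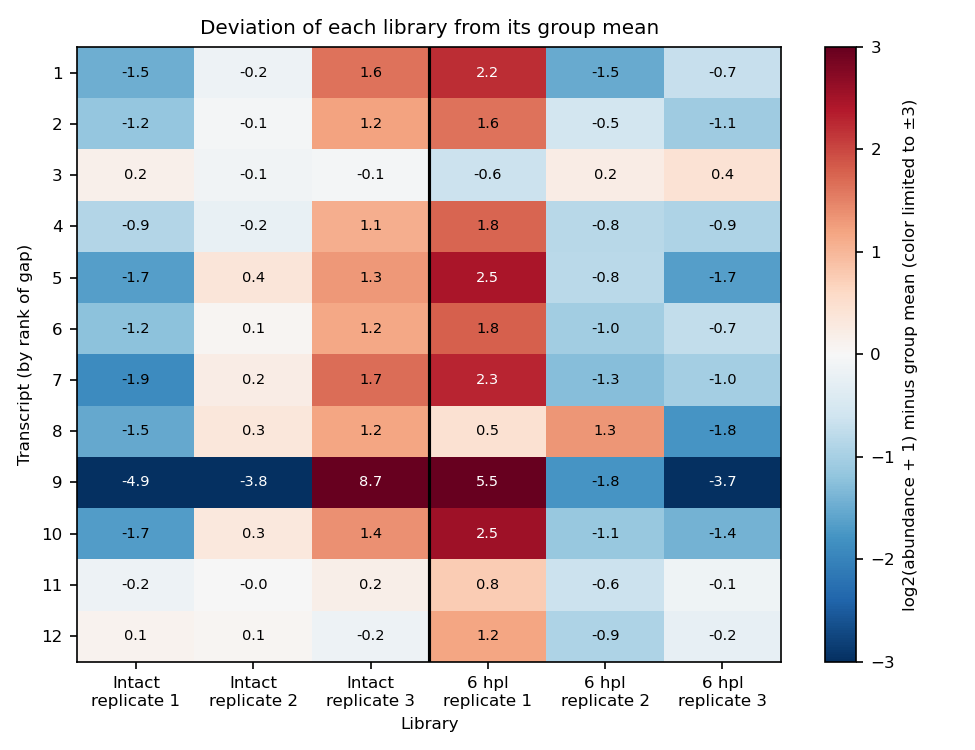
Rows are the 12 transcripts and columns the 3 intact and 3 6 hpl libraries, with the number and color giving log2(abundance + 1) minus the group mean. Intact replicate 3 and 6 hpl replicate 1 are above their group means in most rows, by up to 8.65 and 5.45 in transcript 9, and transcript 3 shows neither.

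With intact replicate 3 and 6 hpl replicate 1 set aside, the mean log2 difference of the 6 later libraries of the 12 from the other 4 earlier ones ranged from -5.67 to -2.51 with a median of -4.23, and the later libraries lay below all 4. The gap of 1.5 in the choice already fixed this order, and it is no sign that the fall is independent of the 2 libraries. Chosen again without both libraries, 9 transcripts met the conditions, 8 of them among the 12, and transcripts 7, 9, 10 and 12 were lost. The 183 other transcripts that were at least 2-fold higher in both libraries were looked at in the same way. Their median difference of the later libraries from the other 4 was -1.16, and 98 of them (53.6%) were lower by 1 log2 unit or more, against 6.53% of the 51463. Groups did not overlap in 9.29% of them, against 3.33%. This class was defined after the values were seen. It picks transcripts for being lower in the 4 libraries that the later ones are set against. By choice its replicates lie far apart in the earlier groups, so a difference of 1 log2 unit in either direction can be more frequent. Of the 183, 129 (70.5%) were lower by any amount, against 56.1% of the 51463, and the highest difference was 4.00. The share higher by 1 unit was not counted, and nothing is read from these shares.

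Each library was also left out of the choice in turn, which gave a value that the choice had not used. The left-out library lay on its own side, above all later libraries or below all earlier ones, in 100% of the transcripts chosen without intact replicate 2 (11), intact replicate 3 (11), or 4 dpl replicate 1 (14), 2 (14) or 3 (15). It did so in 12 of 13 without 6 hpl replicate 3, 19 of 21 without 1 dpl replicate 2, 17 of 19 without 1 dpl replicate 3, 5 of 6 without 6 hpl replicate 1 and 36 of 44 without 6 hpl replicate 2. The lowest shares were 18 of 31 without 1 dpl replicate 1 and 13 of 28 without intact replicate 1. With the left-out library put back, fewer transcripts kept a gap of 1.5 for most libraries. The count was unchanged for intact replicates 2 and 3 and for 6 hpl replicate 1. Those that kept the gap were 9 of 28, 11 of 11 and 11 of 11 for intact replicates 1, 2 and 3. For the replicates of 6 hpl they were 5 of 6, 13 of 44 and 11 of 13. They were 12 of 31, 12 of 21 and 11 of 19 at 1 dpl and 13 of 14, 11 of 14 and 13 of 15 at 4 dpl. Among the 51463 transcripts, each of these libraries lay on that side in 15.8% to 31.2%. Only the left-out value was new. The libraries it was set against had been used in the choice, which made them low or high. The 51463 were not chosen on the gap, so the shares are not a like comparison and nothing is read from their difference. Intact replicate 1 was the lowest intact library in 10 of the 12, and the set was largest, at 44, 31 and 28 transcripts, without 6 hpl replicate 2, 1 dpl replicate 1 and intact replicate 1.

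**Figure D4:**
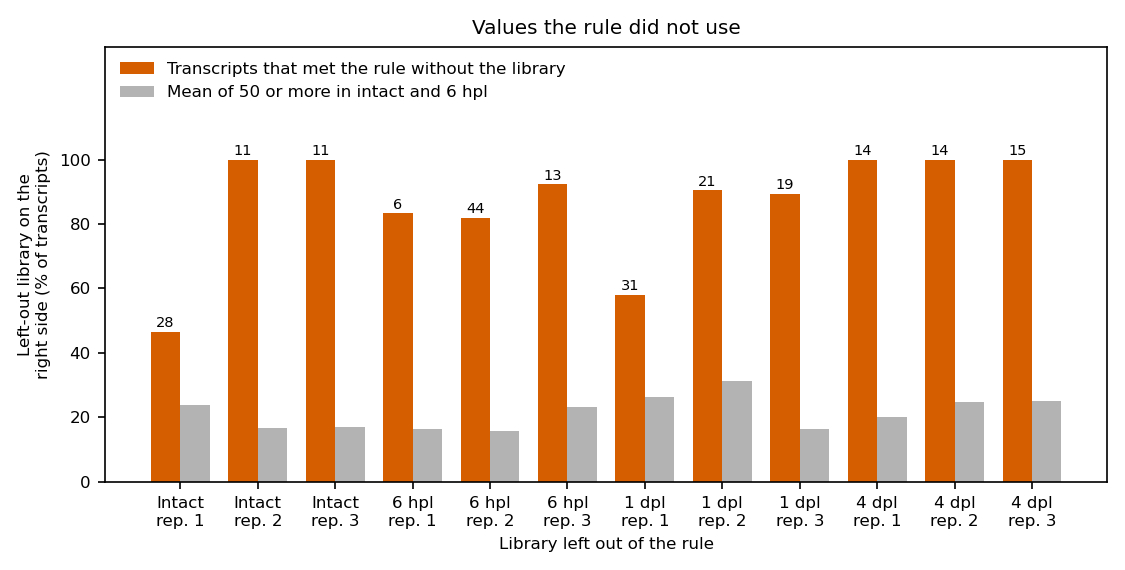
Bars give, for each library left out of the choice, the percent of transcripts in which that library still lay above all later libraries or below all earlier ones. Orange bars are the transcripts chosen without it, with their number above, and grey bars the 51463 transcripts with the same minimum mean, and the orange bar is the higher one for every library, from 46.4% for intact replicate 1 to 100%. The bars count any separation and not one of 1.5. The grey transcripts were not chosen on the gap, so the orange and grey bars are not a like comparison.

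The first digit of a transcript ID, whose meaning is not given in the sources used here, was spread over the 12. It was 1 or 2 in 3 transcripts, 3 or 4 in 4, 5 or 6 in 1, and 7 or 8 in 4, that is 25%, 33.3%, 8.33% and 33.3%. Over all transcripts the shares were 25.5%, 30.4%, 22.6% and 20.8%. Transcripts 1, 2, 6 and 7, which carry digit 7 or 8, were low at 4 dpl, as the choice requires. With the same limits applied to transcripts high in intact iris alone, digits 1 and 2 took 86 of 102 and digits 7 and 8 took 0 of 102. Among those high only from 1 dpl on, digits 5 and 6 took 40 of 99 and digits 7 and 8 took 43 of 99. With 12 transcripts the shares are coarse.

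A fall between 6 hpl and 1 dpl was 1 of 14 ways in which the 4 groups can be divided into high and low. With the same limits, 12 transcripts followed it, the 6th smallest count of the 14. The smaller counts were 0 for 4 patterns and 10 for transcripts high in intact iris and at 4 dpl. The other 8 patterns held 23 to 270 transcripts. Among these, 99 showed the mirror image, low through 6 hpl and high at 1 and 4 dpl. Those high in intact iris alone numbered 102, and those high through 1 dpl and low only at 4 dpl numbered 34. With libraries scaled to equal totals the counts of 12, 99, 102 and 34 became 11, 147, 134 and 47, and with scaling on abundant transcripts 12, 116, 177 and 45. No test of these counts was made. The mean limit applies to every high group, and the patterns differ in how many groups are high. The counts are therefore not strictly comparable, and that of 12 ranged from 6 to 44 with single libraries left out.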

How the data were processed

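Total RNA of newt dorsal iris was sequenced after depletion of abundant transcripts. The authors trimmed reads with Trim Galore, removed ribosomal reads with Bowtie2 and the Silva database, assembled each condition with Trinity, merged the assemblies with DRAP runMeta and estimated abundance with Salmon, averaged over inferential replicates. Their versions are not given in the sources used here. No genome was used. The deposited table was read as a normalised signal per transcript, since each library summed to at least 27737613 and not to the 1000000 of TPM. Over all transcripts tested, the median log2 differences of 6 hpl, 1 dpl and 4 dpl from intact iris were -0.01, -0.01 and -0.03. The scaling of the values is not described in the sources used here. A scaling that evens out such medians would hide a change common to nearly all transcripts.

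Transcripts at 1 or more in at least 3 libraries were tested (855254, the 12 included, with 1197 left out) on log2(value + 1) with limma 3.58.1 in R 4.3.3. The model had 4 group means, all 12 libraries and a variance trend. Tests were two-sided, and p-values were adjusted by Benjamini-Hochberg across the tested transcripts with 0.05 as threshold. The procedure was also run on simulated data in which a transcript had the same spread in every group. The 12 had unequal spread between groups, so that run does not bear on them. The authors used Swish, which needs the inferential replicates, not used here. The laid-out test applied to the unit found. Selection and counts were done in Python 3.11.15 with pandas 2.3.3.

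The 12 transcripts, the limits and the lists were chosen with earlier results of these data known. As the table names no gene, at most 4 IDs were printed, by rule the 2 with the largest gap and the 2 others with the largest positive difference of 6 hpl from intact iris. Alternatives were other pseudocounts, limits and scalings, no filter, no variance trend, 2-group fits, a replicate block and each library left out. Leaving out 2 libraries together was added after the data were seen.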

Additional observations from a re-analysis of the deposited data

How the results depend on the processing

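The number of transcripts that met the conditions was 12. It was 35 with a gap of 1 or more, 7 with group means within 1 and 20 with group means within 2, and it ranged from 6 to 44 with single libraries left out. Other pseudocounts, scalings and minimum means and a gap of 2 gave 8 to 16. Each of the 12 was lost under at least 1 of 23 alternatives. Transcripts 2, 5, 6 and 11 were kept in 22, and transcript 8 in the fewest, 14. Pseudocounts of 0.1 and 10 and both scalings each kept 8 of the 12. The number called at 1 dpl against 6 hpl was 3 in a fit of these 2 groups alone and 7 to 12 with single libraries left out, and at 6 hpl against intact iris 0 to 1, where the 1, transcript 12, appeared without 6 hpl replicate 1. The log2 difference of 6 hpl from intact iris ranged from -0.53 to 1.39 for 7_55726412 and from -0.39 to 1.67 for 4_29118506 with single libraries left out, so its sign was not settled. The cause was not tested. Deviations of same-numbered libraries were correlated above 0.1 in 0 of 18 pairs over all transcripts tested, against 2 of 36 pairs with different numbers. Over the 51463 with a mean of 50 or more in intact iris and at 6 hpl, these counts were 6 of 18 and 10 of 36. There r ranged from -0.42 to 0.15 for same-numbered pairs and from -0.30 to 0.47 for the others. Such correlations cannot show whether libraries were paired or shared a batch, which was not tested. With a replicate block 11 of 12 were called at 1 dpl and 4 dpl against intact iris and against 6 hpl, and 0 in the other comparisons, as without it. The median log2 difference of 4 dpl from intact iris over all transcripts tested was -0.19 with equal totals and -0.29 with scaling on abundant transcripts, against -0.03 as deposited. Without a read depth for each library, how precisely the low later values are known cannot be given.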
